A study of Mus musculus with 15 samples.

Results

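The transcript levels reached after 2 h of interferon beta were compared between NSD2 knockout (KO) fibroblasts that had met interferon a day earlier and KO fibroblasts that had not. These are 3 of the 15 RNA-seq libraries of the study, chosen by their titles. There are 2 libraries of pretreated KO cells at 2 h and 1 library of naive KO cells at 2 h, so the naive side has no replicate of its own. All cells were mouse embryonic fibroblasts (MEFs) of the strain c57bl/6, cultured connective tissue cells, and the KO cells are labelled Nsd2(-/-). Pretreated cells received interferon beta for 3 h, were washed and stayed 24 h without it, and then met it again at 100 units per ml for 2 h. Naive cells met it for the first time, for 2 h at the same dose. The same comparison in wild type (WT, Nsd2(+/+)) cells, with 2 libraries on each side, and the KO cells before the second exposure (0 h), with 2 pretreated and 2 naive libraries, serve to show where the KO comparison differs. How the knockout was made, and whether libraries came from separate cultures or embryos, is not given in the sources used here. P-values therefore measure the spread between libraries, which may be technical, and the naive KO library at 2 h was assumed to vary like the replicates of the other groups.

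Interferon beta binds a receptor of the chains IFNAR1 and IFNAR2, whose kinases JAK1 and TYK2 act on transcription factors of the STAT family. STAT2 and IRF9 are parts of ISGF3, a complex that binds interferon-stimulated response elements (ISREs) in promoters and switches on interferon-stimulated genes. Fibroblasts that have met interferon can answer a later exposure with higher transcript levels, called transcriptional memory, and NSD2, a methyltransferase acting on lysine 36 of histone H3, has been studied in that setting. Bulk RNA cannot tell apart fewer responding cells and less RNA per cell.

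The 250 bases upstream of 4 interferon-stimulated genes are shown because these genes span the outcomes below. Cxcl10 and Rsad2 are among the large rises, Ifit1 is abundant and rose little, and Stat2 did not pass the test. The sequences are from RefSeq on GRCm38.p6, a later build than the mm9 build of the counts, 5′ to 3′ on the gene's strand, ending at the base before the start site. Capitals mark matches to the ISRE pattern, which is GAAA, any 2 bases and GAAA again, or on the other strand TTTC, any 2 bases and TTTC.
Cxcl10: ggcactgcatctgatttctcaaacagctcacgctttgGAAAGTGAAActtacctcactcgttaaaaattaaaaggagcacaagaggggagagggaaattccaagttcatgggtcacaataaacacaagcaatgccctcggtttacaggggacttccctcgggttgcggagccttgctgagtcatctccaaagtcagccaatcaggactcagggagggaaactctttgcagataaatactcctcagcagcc
Rsad2: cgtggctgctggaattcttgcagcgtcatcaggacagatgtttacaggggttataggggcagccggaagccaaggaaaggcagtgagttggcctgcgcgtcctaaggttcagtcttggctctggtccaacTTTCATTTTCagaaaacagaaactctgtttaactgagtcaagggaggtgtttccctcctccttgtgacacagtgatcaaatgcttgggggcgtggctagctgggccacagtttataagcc
Ifit1: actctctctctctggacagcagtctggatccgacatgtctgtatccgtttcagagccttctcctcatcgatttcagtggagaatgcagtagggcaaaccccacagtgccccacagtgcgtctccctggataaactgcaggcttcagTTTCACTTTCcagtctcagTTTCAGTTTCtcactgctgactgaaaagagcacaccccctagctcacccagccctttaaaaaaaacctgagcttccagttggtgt
Stat2: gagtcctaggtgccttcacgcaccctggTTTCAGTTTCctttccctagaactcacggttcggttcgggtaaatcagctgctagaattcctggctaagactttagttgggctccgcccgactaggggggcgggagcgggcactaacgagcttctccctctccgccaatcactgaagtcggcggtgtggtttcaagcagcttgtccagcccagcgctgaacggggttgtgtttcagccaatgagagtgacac
Cxcl10 lies on the minus strand (chr5:92348890-92349139), and its match begins 213 bases before the start site. Rsad2 is also on the minus strand (chr12:26456453-26456702), with the match 120 bases before it. Ifit1 is on the plus strand (chr19:34640639-34640888), with matches that begin 104 and 85 bases before it. Stat2 is on the plus strand (chr10:128270248-128270497), with a match 222 bases before it. Of all 32851 promoter windows in the table, which run from 250 bases before to 50 after a start, 3.44% held the pattern. All 4 genes thus hold the pattern, whether or not they passed the test. No comparison of the pattern between sets of genes is drawn here, since part of each set had no promoter in the table. It held promoters for 78.8% of the genes tested and for 74.1% of those called and at least 2-fold higher. These 4 promoters were picked as examples and do not stand for such a comparison.

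The 3 libraries held 44116418 and 29061196 counts in genes for pretreated KO cells and 29206630 for naive KO cells, within the range of all 15 libraries (17170845 to 44116418). They detected 16255, 15880 and 15687 genes, in the same order. Rn45s, a ribosomal RNA precursor, and Lars2 made up 25.6% and 24.7% of the counts in the pretreated libraries and 29.2% in the naive one. In scaled counts (CPM), Whsc1, the symbol under which the files list Nsd2, stood at 108.8 and 109.6 CPM in pretreated KO cells and 100.1 CPM in naive KO cells, with a log2 change of 0.13 ± 0.058 (SE, edgeR adjusted p = 0.14). In WT cells at 2 h it stood at 145.3 and 141.1 CPM in pretreated and 112.9 and 115.5 CPM in naive libraries, so the transcript was still abundant in the libraries labelled KO. Since the counts are summed over the gene, they would miss the loss of some exons, and KO and WT here mean what the libraries are labelled. CPM are counts scaled to a common library size, and log2 changes are pretreated over naive at 2 h unless another comparison is named.

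Of the 13802 genes tested, 2598 (18.8%) passed an adjusted p of 0.05 in edgeR's quasi-likelihood test between pretreated and naive KO cells at 2 h. Among them, 1548 (11.2%) were higher in pretreated cells and 1050 (7.61%) were lower, and the median log2 change of all genes was 0.0087. Most changes were small, since 54 genes (0.391%) were called and at least 2-fold higher and 77 (0.558%) were called and at least 2-fold lower. Leaving out pretreated replicate 1 gave 1674 calls and leaving out replicate 2 gave 2148.

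**Figure D1:**
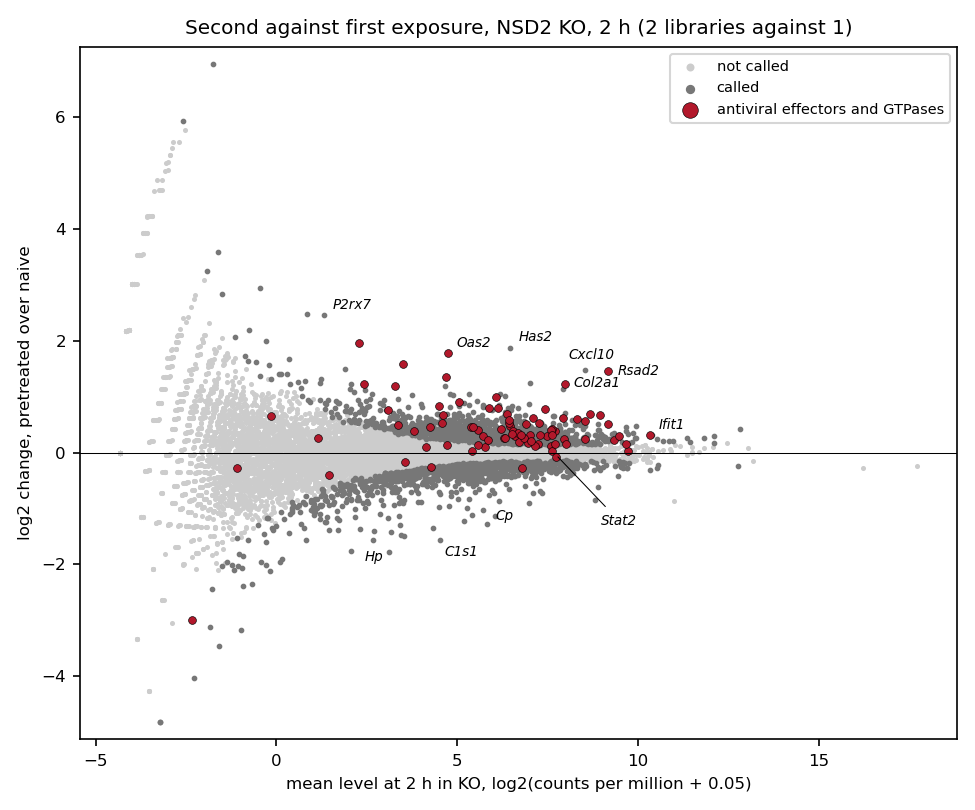
Log2 change at 2 h, pretreated over naive KO cells, against the mean level in the 3 KO libraries at 2 h on a log2 scale. Each point is 1 gene. Dark grey points passed an adjusted p of 0.05 and light grey points did not, and red points are the members of the antiviral and GTPase lists, most of which lie above 0. Lines of points at the far left are genes with few counts, whose fitted changes are not informative.

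The plot of change against level shows that most abundant interferon genes lie above 0 and at or below the change of Rsad2, while genes of low level spread widely in both directions.

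Antiviral genes stood higher at the second exposure than at the first. Of 69 tested antiviral effectors, 48 were called higher, 1 lower and 20 not, beside 11.2% called higher among all genes, and their median log2 change was 0.38. Without pretreated replicate 2, 41 were called higher. Rsad2, which encodes viperin, an enzyme that makes a chain-terminating nucleotide, stood at 824.7 and 856.9 CPM in pretreated KO cells and 304.4 CPM in naive KO cells. Cmpk2, its neighbour in the genome, encodes a nucleotide kinase and stood at 350.0 and 353.3 CPM in pretreated cells and 150.4 CPM in the naive library. Both genes were higher in each pretreated library than in the naive one, by log2 changes of 1.47 ± 0.064 (edgeR adjusted p = 9.8e-16) and 1.23 ± 0.059 (adjusted p = 4.8e-15). Counting error in the naive library is small at such depth, with a 95% Poisson interval for Rsad2 of 297.8 to 311.1 CPM.

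The oligoadenylate synthetases, which sense double-stranded RNA and activate RNase L, held some of the large rises. Oas2 had 43.8 and 39.2 CPM in pretreated cells and 12.1 CPM in the naive library. Oas1g had 7.48 and 7.72 CPM against 1.95 CPM, Oas3 had 14.5 and 12.4 CPM against 5.96 CPM, and Oas1a had 38.2 and 35.7 CPM against 14.5 CPM, pretreated against naive. In all 4 genes both pretreated libraries exceeded the naive one, which the rule for naming the largest rises required of Oas2 and Oas1g. The log2 changes were 1.78 ± 0.12 for Oas2 (edgeR adjusted p = 4.6e-12), 1.96 ± 0.23 for Oas1g (adjusted p = 3.6e-07), 1.35 ± 0.12 for Oas1a (adjusted p = 1.4e-09) and 1.19 ± 0.20 for Oas3 (adjusted p = 6.8e-05, and 0.16 in DESeq2). Oas1a and Oas1g are near copies, so the split of reads between them is uncertain. Oasl1, a related gene whose protein limits Irf7 translation, had 40.3 and 46.1 CPM in pretreated cells and 42.3 CPM in the naive library, and its libraries overlapped.

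Further antiviral genes gave smaller changes. Mx1, a GTPase gene, had 212.5 and 224.1 CPM in pretreated cells and 127.1 CPM in the naive library, a log2 change of 0.78 ± 0.097 (edgeR adjusted p = 1.1e-06). Bst2, the tetherin that holds budding virus at the cell surface, had 89.8 and 88.3 CPM against 51.2 CPM, or 0.80 ± 0.089 (adjusted p = 1.7e-07). Usp18, the protease that removes ISG15 and restrains the receptor, had 494.5 and 505.9 CPM against 311.6 CPM, or 0.68 ± 0.066 (adjusted p = 1.1e-08). Isg15, the ubiquitin-like modifier itself, had 97.8 and 106.7 CPM against 70.4 CPM, or 0.54 ± 0.080 (adjusted p = 1.5e-05). These 4 genes were higher in both pretreated libraries. Further called members were Oasl2 with a log2 change of 0.58 and Daxx, a chaperone of histone H3.3, with 0.62. Ifi27l2a moved more, with 15.4 and 18.4 CPM against 5.62 CPM and a log2 change of 1.58 (adjusted p = 2.3e-07). Its mean already differed by 9.77 CPM at 0 h, against 11.3 CPM at 2 h.

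The Ifit genes, whose products bind viral RNA, were abundant and moved little. Ifit1 had 1387 and 1481 CPM in pretreated cells and 1154 CPM in the naive library. Ifit2 had 668.5 and 720.7 CPM against 593.5 CPM, and Ifit3 had 721.3 and 841.5 CPM against 637.5 CPM. The log2 changes were 0.31 ± 0.093 for Ifit1 (edgeR adjusted p = 0.017), 0.23 ± 0.066 for Ifit2 (adjusted p = 0.015) and 0.29 ± 0.096 for Ifit3 (adjusted p = 0.032). All 3 calls were lost without pretreated replicate 2 (adjusted p = 0.082, 0.12 and 0.25 for Ifit1, Ifit2 and Ifit3) and in DESeq2 (0.56, 0.17 and 0.50). Mx2 had 133.0 and 133.1 CPM in pretreated cells and 117.7 CPM in the naive library, a log2 change of 0.18 ± 0.072 that missed the threshold (adjusted p = 0.085). Gm14446, another Ifit-like gene, had 189.0 and 213.7 CPM against 185.2 CPM (adjusted p = 0.31). Ifitm2, a membrane protein gene that limits viral entry, was the one member called lower, with 100.8 and 101.4 CPM against 122.0 CPM and a log2 change of -0.27 ± 0.062 (adjusted p = 0.0022).

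**Figure D2:**
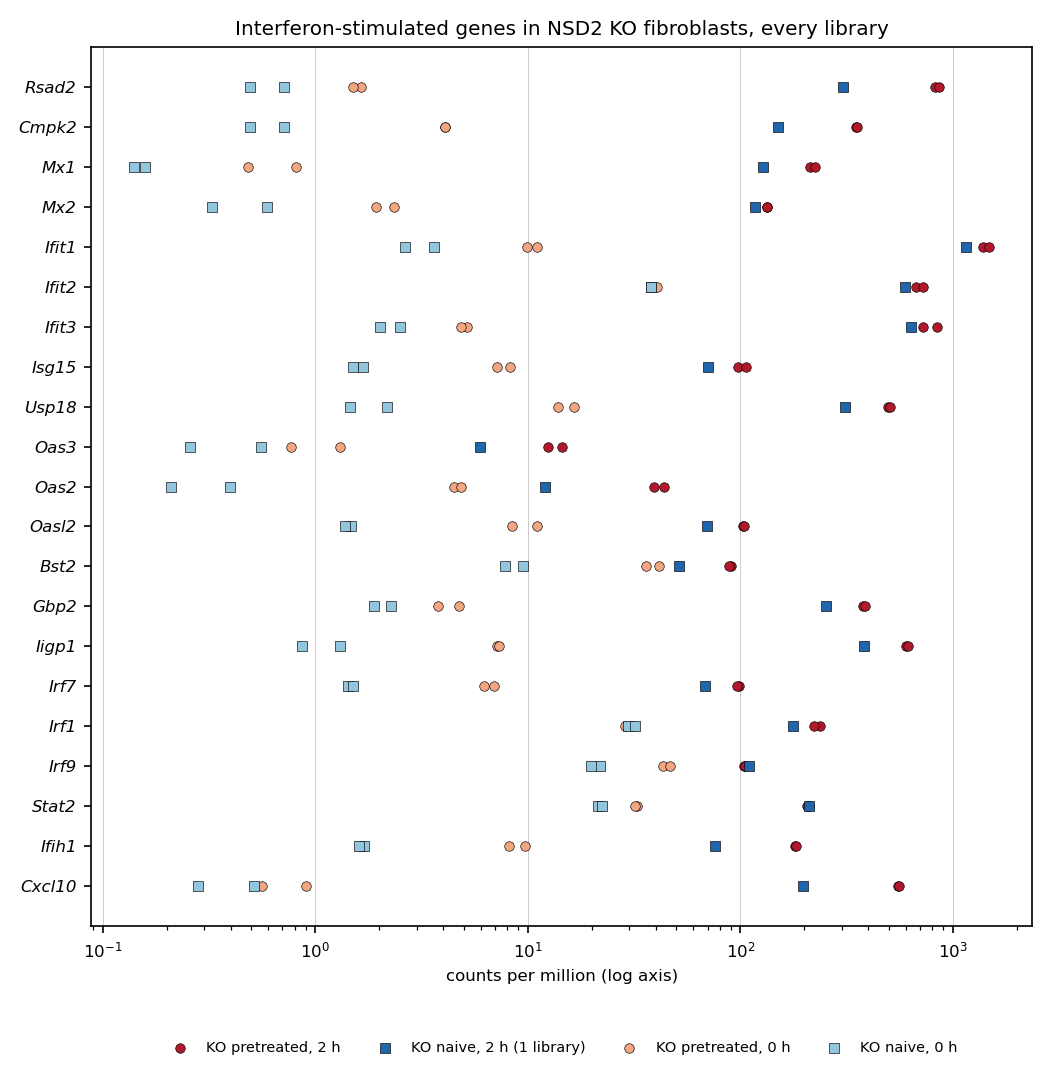
CPM of 21 interferon-stimulated genes on a log axis in every KO library, as dots for pretreated and squares for naive cells. Dark symbols are 2 h of interferon, with 1 naive library, and pale symbols are 0 h. The dark dots lie right of the dark squares for genes such as Rsad2 and Oas2 and on top of them for Stat2, while the pale symbols of most genes lie far to the left of both.

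The interferon-inducible GTPases, which attack the vacuoles of intracellular pathogens, had 9 of 15 tested members called higher (11.2% of all genes), 0 lower (7.61%) and a median log2 change of 0.32. Iigp1 had 600.2 and 614.5 CPM in pretreated cells and 381.5 CPM in the naive library, a log2 change of 0.67 ± 0.069 (edgeR adjusted p = 3.7e-08). Gbp2 had 376.4 and 385.1 CPM against 251.5 CPM, or 0.60 ± 0.070 (adjusted p = 3.9e-07). Gbp3 and Igtp gave 0.47 and 0.41. Irgm1, which regulates the other members of its family, had 823.2 and 899.4 CPM in pretreated cells and 844.5 CPM in the naive library. Its libraries overlapped, and it was not called (adjusted p = 0.80). Gbp6 and Gbp10 share near-identical sequence and neither was called.

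The genes of the signalling chain itself did not move together. Stat2 had 209.7 and 205.3 CPM in pretreated cells and 210.9 CPM in the naive library, a log2 change of -0.02 ± 0.063 (edgeR adjusted p = 0.84). Irf9 had 103.5 and 105.4 CPM against 110.1 CPM, or -0.08 ± 0.069 (adjusted p = 0.50). Neither of these parts of ISGF3 was called, and 95% counting limits put the naive Stat2 level at 205.5 to 216.5 CPM. Of the receptor side, Ifnar1 fell by 0.34 on the log2 scale (adjusted p = 6.6e-05), with 82.3 and 80.1 CPM in pretreated cells and 102.7 CPM in the naive library. Ifnar2 and Jak1 were not called (adjusted p = 0.28 and 0.15). Jak2 gave 0.18 and Tyk2 gave -0.21 (adjusted p = 0.040 and 0.047). Stat3 had 82.1 and 81.8 CPM against 109.1 CPM, a log2 change of -0.41 (adjusted p = 5.9e-05).

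Several transcription factors and the main feedback inhibitor of the pathway were higher. Irf5 had 159.4 and 166.3 CPM in pretreated cells and 89.4 CPM in the naive library, a log2 change of 0.86 ± 0.064 (edgeR adjusted p = 6.4e-11). Irf7, the factor that amplifies interferon production, had 99.0 and 96.3 CPM against 68.0 CPM, or 0.52 ± 0.068 (adjusted p = 2.1e-06). Irf1 had 236.8 and 222.9 CPM against 176.5 CPM, or 0.38 ± 0.057 (adjusted p = 1.7e-05). Socs1, which inhibits the receptor's kinases, had 73.8 and 82.7 CPM against 46.1 CPM, or 0.76 ± 0.096 (adjusted p = 1.4e-06). All 4 stood above the naive library in both pretreated libraries. Over the whole signalling list of 26 tested genes, 9 were called higher and 5 lower (11.2% and 7.61% of all genes), with a median of 0.064. In DESeq2 the counts were 5 and 3, and the count called lower was 3 without replicate 1 or without replicate 2 of the pretreated libraries.

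Sensors of nucleic acids had 10 of 21 members called higher and 1 lower (11.2% and 7.61% of all genes), with a median of 0.21. The count called higher was 6 without pretreated replicate 1, where none was called lower, and 5 in DESeq2. Ifih1, which encodes MDA5, a detector of long double-stranded RNA, had 180.3 and 181.6 CPM in pretreated cells and 75.8 CPM in the naive library, a log2 change of 1.25 ± 0.075 (edgeR adjusted p = 7.8e-13). Tlr3, a sensor in endosomes, had 118.2 and 118.9 CPM against 66.3 CPM, or 0.84 ± 0.068 (adjusted p = 4.1e-10), and Ifi205 had 33.9 and 36.6 CPM against 15.4 CPM, or 1.19 ± 0.12 (adjusted p = 1.6e-08). Ddx58, which encodes RIG-I, the sister sensor of MDA5, had 294.1 and 299.7 CPM in pretreated cells and 296.2 CPM in the naive library and was not called (adjusted p = 0.98). MDA5 and RIG-I transcripts thus differed in this comparison, the first with separate groups and the second with overlapping ones.

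Genes of MHC class I presentation, which shows peptides from inside the cell to T cells, had 14 of 21 tested members called higher and 0 lower (11.2% and 7.61% of all genes), with a median of 0.40. Nlrc5, the transactivator of these genes, had 107.3 and 105.7 CPM in pretreated cells and 52.7 CPM in the naive library, a log2 change of 1.01 ± 0.070 (edgeR adjusted p = 1.4e-11). H2-D1 had 134.4 and 121.8 CPM against 88.1 CPM and H2-K1 had 96.2 and 93.7 CPM against 67.6 CPM, with log2 changes of 0.54 and 0.49. Tapbp, which loads peptide, gave 0.43, and Psmb8, an immunoproteasome subunit, gave 0.46 ± 0.14 (adjusted p = 0.017, 0.086 without pretreated replicate 1 and 0.21 in DESeq2). The H2 genes are similar in sequence and their shared reads are uncertain.

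Chemokines and targets of the inflammatory factor NF-kB moved in both directions. Cxcl10, which draws activated T cells, had 548.7 and 556.3 CPM in pretreated KO cells, a mean of 552.5 ± 5.35 CPM (SD, n = 2), and 197.2 CPM in the naive library, with a Poisson interval of 191.9 to 202.6 CPM. Its log2 change was 1.49 ± 0.067 (edgeR adjusted p = 1.3e-15). Cxcl11, a ligand of the same receptor, gave 1.41 (adjusted p = 0.021) at 1.46 and 2.00 CPM against 0.637 CPM. Il15 gave 0.85 (adjusted p = 0.00063). Against these, Cxcl1, which draws neutrophils, had 1.31 and 1.78 CPM in pretreated cells and 3.56 CPM in the naive library, a log2 change of -1.24 (adjusted p = 0.00028). Vcam1, an adhesion molecule, had 232.1 and 243.7 CPM against 314.2 CPM, and Tnfaip2 had 65.5 and 66.5 CPM against 97.1 CPM, with log2 changes of -0.40 and -0.56. Of the 28 tested members, 7 were called higher and 7 lower, beside 11.2% and 7.61% of all genes (4 higher in DESeq2), with a median of -0.0067, close to that of all genes.

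Of 16 genes of cell death and immune checkpoints, 4 were called higher and 1 lower (11.2% and 7.61% of all genes). Cd274, which encodes the checkpoint ligand PD-L1, had 123.3 and 120.2 CPM in pretreated cells and 77.3 CPM in the naive library, a log2 change of 0.66 ± 0.077 (edgeR adjusted p = 4.0e-07). The death ligand Tnfsf10 gave 0.60 and Mlkl, the pore-forming protein of necroptosis, gave 0.48. The death receptor Fas had 10.7 and 11.5 CPM in pretreated cells and 16.3 CPM in the naive library and fell by 0.56 on the log2 scale (adjusted p = 0.0022).

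**Figure D3:**
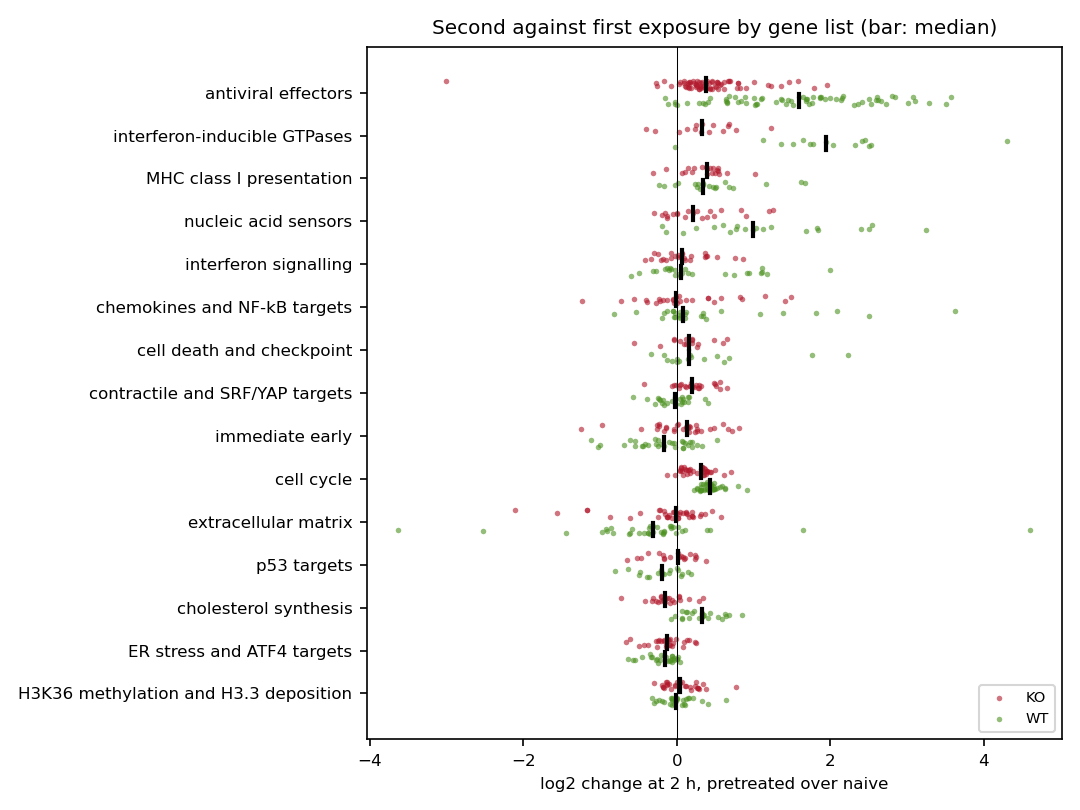
Log2 change at 2 h, pretreated over naive, of each tested member of 15 gene lists, in KO cells (upper row of each pair) and WT cells (lower row). Black bars are medians. The antiviral and GTPase lists have medians of 0.38 and 0.32 in KO cells and 1.60 and 1.95 in WT cells.

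A wider list of interferon genes was taken from WT cells. It holds the 261 genes called and at least 2-fold higher after 2 h of interferon in naive WT cells, in libraries that the KO comparison does not use. In KO cells, 89 of them were called higher at the second exposure and 29 lower, beside 11.2% and 7.61% of all genes. Their median log2 change was 0.18. Of the 66 that the interferon-related lists above hold, 44 were called higher and 2 lower, with a median of 0.33. The other 195 gave 45 higher and 27 lower, with a median of 0.094.

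The WT cells gave larger changes for most antiviral genes. At 2 h, 59 of the 69 antiviral members were called higher and 0 lower in pretreated against naive WT cells, with a median of 1.60, beside 13.2% called higher among all genes in WT. The log2 change was smaller in KO than in WT for 65 of the 69, and 8 were called and at least 2-fold higher in KO, against 46 in WT, where 1.09% of all genes were. Tested as a difference of the changes, KO minus WT, 1248 genes (9.04%) were called, 704 (5.1%) positive and 544 (3.94%) negative. The total was 778 without WT naive replicate 1 and 814 without KO pretreated replicate 1. Among the antiviral members 52 were negative and 0 positive, and among the GTPases 10 of 15 were negative. The sensors had 12 of 21 and the signalling genes 6 of 26 members negative, with 0 positive in each.

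Levels at 2 h show what the smaller change in KO cells was measured against. Usp18 had 494.5 and 505.9 CPM in pretreated and 311.6 CPM in naive KO cells, and 152.3 and 165.6 CPM in pretreated and 20.9 and 18.1 CPM in naive WT cells. The naive KO library thus lay above both pretreated WT libraries. The same held for Ifit1, with 1387 and 1481 CPM in pretreated and 1154 CPM in naive KO cells, and 252.3 and 334.6 CPM in pretreated and 46.2 and 41.9 CPM in naive WT cells. For Rsad2 the pretreated WT libraries had 11.9 and 15.3 CPM and the naive WT libraries 1.52 and 1.64 CPM. The difference of changes, KO minus WT, was -2.33 ± 0.095 for Usp18 (edgeR adjusted p = 1.6e-16), -2.41 ± 0.13 for Ifit1 (adjusted p = 4.5e-14) and -1.64 ± 0.17 for Rsad2 (adjusted p = 6.7e-08). How much a higher first response limits a further rise was not tested.

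**Figure D4:**
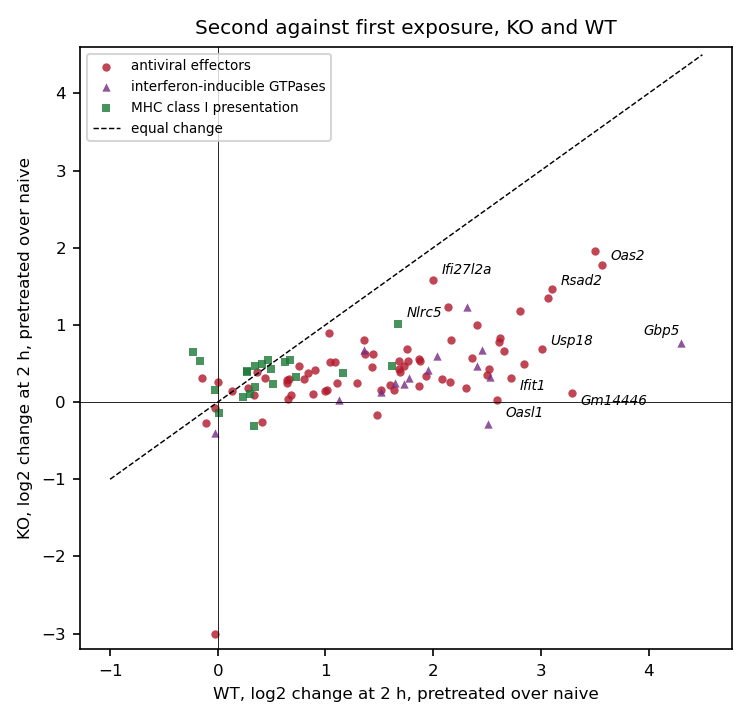
Log2 change at 2 h, pretreated over naive, in KO cells (vertical) against WT cells (horizontal) for 3 gene lists. The dashed line marks equal change. All but 4 of the 69 antiviral members lie below the line, while squares of the MHC class I list lie close to it at small changes.

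The MHC class I list had 14 of 21 members called higher in KO and 12 in WT (11.2% and 13.2% of all genes). Its medians were 0.40 in KO and 0.34 in WT. The difference of changes was called positive for 1 member and negative for 4 (5.1% and 3.94% of all genes). The difference was -0.66 for Nlrc5 (edgeR adjusted p = 0.032), which was called, and -0.13 for H2-D1 (adjusted p = 0.42) and -0.07 for Tapbp (adjusted p = 0.65), which were not. Some members were near the floor in WT, where H2-K1 had 34 counts in the pretreated and 25 in the naive libraries and Psmb8 had 13 and 4, so their changes in WT are poorly measured. H2-K1 averaged 0.661 ± 0.138 CPM in pretreated and 0.473 ± 0.108 CPM in naive WT cells (SD, n = 2 each), far below the KO libraries. The lists were not tested against each other. Irf5 and Socs1, whose changes were 0.86 and 0.76 in KO and 1.09 and 0.94 in WT, gave differences of -0.23 (edgeR adjusted p = 0.12) and -0.18 (adjusted p = 0.49).

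Before the second exposure, at 0 h, pretreated KO cells already differed from naive KO cells in libraries that the 2 h comparison does not share. Of all genes, 2995 (21.7%) were called, 1533 (11.1%) higher and 1462 (10.6%) lower. The total was 1897 without naive replicate 2 and 1956 without pretreated replicate 2 of the 0 h libraries. Of the antiviral members, 55 were called higher and 2 lower, with a median of 0.83. Of the 1548 genes higher at 2 h, 596 were also higher at 0 h, which is 38.5% of the 2 h genes and 38.9% of the 0 h genes, and 63 were lower at 0 h. Of the 1050 lower at 2 h, 449 were also lower at 0 h (42.8% of these and 30.7% of the 0 h genes) and 20 were higher. Across the 69 antiviral genes, Pearson's r between the 0 h and 2 h changes was 0.62 and Spearman's rho 0.55, a description across genes, which were measured in the same libraries and are not independent.

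In CPM, the difference at 0 h was small beside that at 2 h for most followed interferon genes. Rsad2 had 1.65 and 1.50 CPM in pretreated and 0.713 and 0.491 CPM in naive KO cells at 0 h, a difference of 0.969 CPM, against 536.4 CPM at 2 h. Cxcl10 differed by 0.337 CPM at 0 h and by 355.3 CPM at 2 h. Of 24 followed interferon genes, 19 were called higher at 2 h, and in 14 of these the difference at 0 h was under 10% of that at 2 h. The exceptions were Bst2 with 79.3%, Psmb8 with 30.0%, Oasl2 with 24.3%, Isg15 with 19.1% and Irf7 with 17.3%. Bst2 had 35.9 and 41.4 CPM in pretreated and 9.47 and 7.79 CPM in naive KO cells at 0 h. It was thus the followed gene whose 2 h CPM difference was nearest to the one already there. The 14 include Irf1, whose 0 h difference was -0.894 CPM. On the log2 scale the order was different. Among the 19, the 0 h change was below the 2 h change only for Rsad2, Cxcl10, Ifit2, Irf1 and Socs1. Cmpk2 gave 2.81 at 0 h and 1.23 at 2 h, and Ifit1 gave 1.80 and 0.31.

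Among the large rises of genes in none of the 15 gene lists, Has2, the synthase of the matrix sugar hyaluronan, had 132.9 and 143.5 CPM in pretreated KO cells and 37.5 CPM in the naive library at 2 h. The log2 change was 1.88 ± 0.097 (edgeR adjusted p = 2.4e-14), against 0.61 in WT, and the difference between genotypes was 1.27 ± 0.12 (adjusted p = 3.5e-09). At 0 h Has2 had 6.10 and 6.89 CPM in pretreated KO cells and a mean of 2.89 ± 0.511 CPM (SD, n = 2) in naive KO cells, below all 3 KO libraries at 2 h. Col2a1, a collagen chain of cartilage, had 328.9 and 346.6 CPM against 153.3 CPM, or 1.14 ± 0.063 (adjusted p = 1.3e-13), and it was already higher at 0 h by 0.65. P2rx7, an ATP-gated channel, had 4.25 and 4.04 CPM against 0.749 CPM, or 2.46 ± 0.35 (adjusted p = 8.0e-06). At 0 h it already had 3.15 and 4.12 CPM in pretreated and 0.396 and 0.935 CPM in naive KO cells. That is a log2 change of 2.31, and in WT at 2 h P2rx7 gave 2.70. Tll1, a protease that processes procollagen, gave 1.49 ± 0.20, and 1.20 at 0 h. All of these stood higher in both pretreated libraries, which the rule for naming the largest rises required of Has2, P2rx7 and Tll1.

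Other large rises rest on few counts or on 1 library. Ctnnd2, which encodes delta-catenin, had 1.02 and 1.42 CPM in pretreated cells and 0.150 CPM, from 4 counts, in the naive library. Igfbp5, a carrier of insulin-like growth factors, had 4.88 and 0.983 CPM in the 2 pretreated libraries and 0.562 CPM in the naive one. Its log2 change of 2.48 came to 0.80 without pretreated replicate 1 (edgeR adjusted p = 0.48). Ifi27l2b, Clic5 and Flt4 gave 2.00, 1.68 and 1.56 at levels up to 2.33 CPM. Clic5 lost its call without replicate 2 (adjusted p = 0.086), and Flt4 without replicate 1 or without replicate 2 (adjusted p = 0.057 and 0.053).

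Contractile genes and targets of SRF and YAP, factors that respond to actin and tension, had 15 of 25 members called higher and 0 lower (11.2% and 7.61% of all genes), with a median of 0.20. Cyr61 had 441.0 and 411.2 CPM in pretreated cells and 288.8 CPM in the naive library, a log2 change of 0.56 ± 0.055 (edgeR adjusted p = 1.3e-08). Amotl2 gave 0.57, Filip1l 0.65 and Actn1, an actin crosslinker, 0.48. Before the second exposure, 19 members were already called higher in pretreated KO cells and 1 lower (11.1% and 10.6% of all genes). The median at 0 h was 0.27. In WT at 2 h the list had 5 members higher and 9 lower (13.2% and 11.8% of all genes). The difference of changes was called positive for 12 and negative for 1 (5.1% and 3.94% of all genes).

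Among immediate early genes, whose transcription starts soon after a growth or stress signal, 8 of 33 were called higher and 4 lower (11.2% and 7.61% of all genes), with a median of 0.13, and 5 higher without pretreated replicate 1. Myc had 54.0 and 52.7 CPM in pretreated cells and 32.5 CPM in the naive library, a log2 change of 0.72 ± 0.072 (edgeR adjusted p = 2.0e-08). Egr2 had 14.9 and 15.6 CPM against 29.8 CPM, or -0.97 ± 0.11 (adjusted p = 1.6e-07). In KO cells at 0 h, 11 members were called higher and 4 lower (11.1% and 10.6% of all genes). The difference from WT at 2 h was called positive for 12 members and negative for 0 (5.1% and 3.94% of all genes).

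Cell cycle genes had 22 of 37 members called higher and 0 lower (11.2% and 7.61% of all genes), with a median of 0.31. Mybl2, a factor of late cell cycle transcription, had 42.8 and 39.8 CPM in pretreated cells and 25.4 CPM in the naive library, a log2 change of 0.71 ± 0.079 (edgeR adjusted p = 1.6e-07). Uhrf1 gave 0.43, Foxm1 0.44 and Mcm5, a subunit of the replicative helicase, 0.39. Pretreated KO cells already had 30 of 37 called higher and 0 lower at 0 h (11.1% and 10.6% of all genes), with a median of 0.23. WT cells at 2 h had 36 of 37 higher (13.2% of all genes), with a median of 0.43. The difference was called negative for 12 (3.94% of all genes).

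Genes of cholesterol synthesis and of the stress pathways leaned the other way. In cholesterol synthesis 9 of 24 were called lower and 2 higher, with a median of -0.15, beside 7.61% called lower among all genes, and the count called higher was 1 without pretreated replicate 1. Insig1, which holds the sterol sensor in the endoplasmic reticulum, had 124.2 and 121.6 CPM in pretreated cells and 203.7 CPM in the naive library, a log2 change of -0.73 ± 0.056 (edgeR adjusted p = 1.6e-10). Sqle, which encodes squalene epoxidase, gave -0.32. In KO cells at 0 h, 7 members were called lower and 2 higher (10.6% and 11.1% of all genes). In WT at 2 h, 15 members were higher and 0 lower (13.2% and 11.8% of all genes). The difference was called negative for 17 (3.94% of all genes).

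Targets of endoplasmic reticulum stress and ATF4 had 8 of 28 members lower and 1 higher (7.61% and 11.2% of all genes), with a median of -0.13 (2 higher without pretreated replicate 2). Ddit4, an inhibitor of the kinase mTORC1, had 11.1 and 11.5 CPM in pretreated cells and 17.9 CPM in the naive library and fell by 0.67 on the log2 scale (edgeR adjusted p = 1.5e-05). Xbp1, Slc7a11 and Asns gave -0.42, -0.49 and -0.37. Pretreated KO cells already had 16 members called lower and 0 higher at 0 h (10.6% and 11.1% of all genes), with a median of -0.14. WT at 2 h had 13 lower and 0 higher, beside 11.8% called lower among all genes.

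The p53 targets had 4 of 20 higher and 5 lower, beside 11.2% and 7.61% of all genes (2 and 2 without pretreated replicate 1, and 2 lower without replicate 2), with Trp53inp1 at 64.9 and 69.9 CPM in pretreated cells against 105.5 CPM in the naive library. Genes of H3K36 methylation and H3.3 deposition had 7 of 30 higher and 4 lower (11.2% and 7.61% of all genes), with a median of 0.036, and 1 lower without replicate 1 or without replicate 2 of the pretreated libraries. Whsc1l1, which encodes the related methyltransferase NSD3, had 90.5 and 92.7 CPM in pretreated cells and 70.5 CPM in the naive library, a log2 change of 0.38 ± 0.073 (edgeR adjusted p = 0.00041). Asf1b, an H3 chaperone, gave 0.35.

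Extracellular matrix genes split, with 9 of 38 higher and 9 lower, beside 11.2% and 7.61% of all genes (5 and 5 without pretreated replicate 1, and 5 lower in DESeq2). Tnc, the matricellular protein tenascin C, had 351.0 and 345.2 CPM in pretreated cells and 233.2 CPM in the naive library, a log2 change of 0.58 ± 0.058 (edgeR adjusted p = 2.2e-08). Col8a1 and Fbln2 gave 0.37 and 0.31, and Col11a1 gave -0.49. Pretreated KO cells at 0 h had 6 called higher and 22 lower (11.1% and 10.6% of all genes), with a median of -0.19. WT at 2 h had 1 higher and 23 lower (13.2% and 11.8% of all genes). The difference was called positive for 20 members and negative for 1 (5.1% and 3.94% of all genes).

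Among the largest falls were genes at modest levels. Hp, the haemoglobin scavenger haptoglobin, had 2.99 and 5.06 CPM in pretreated KO cells and 13.3 CPM in the naive library, a log2 change of -1.78 ± 0.17 (edgeR adjusted p = 1.1e-08). C1s1, a protease of the classical complement pathway, had 9.95 and 13.7 CPM against 34.2 CPM, or -1.56 ± 0.11 (adjusted p = 5.4e-11). Col28a1 had a mean of 1.89 ± 0.368 CPM (SD, n = 2) against 6.29 CPM, or -1.77, and Prelp, a leucine-rich matrix proteoglycan, had 2.84 and 3.57 CPM against 9.37 CPM, or -1.57. Gda, a guanine deaminase, had 5.36 and 6.70 CPM against 16.8 CPM, or -1.50. Each of these 5 was lower in both pretreated libraries than in the naive one, which the rule for naming the largest falls required. Each was also called lower at 0 h, with changes such as -1.82 for Prelp and -1.43 for C1s1. In WT at 2 h, Hp, C1s1 and Prelp were also called lower (edgeR adjusted p = 0.023, 2.4e-08 and 3.0e-06). Their WT log2 changes were -2.90, -1.16 and -2.53, and the genotype differences were not called (adjusted p = 0.58, 0.16 and 0.19). Hp rested on 2 counts in pretreated and 16 in naive WT cells. Col28a1 and Gda had at most 7 counts per WT group at 2 h.

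Lum, Slpi, Selenbp1, Mfap5, Kit, Tek and Krt8 also fell, by 1.56 to 2.11 on the log2 scale, with at most 2.55 CPM in the naive library. Of these, Lum, Slpi, Kit and Tek lost the call without pretreated replicate 1 (adjusted p = 0.073, 0.10, 0.058 and 0.092), and Mfap5 without replicate 2 (adjusted p = 0.092).

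Complement and acute-phase genes were looked up after the values of Hp and C1s1 had been seen, so their agreement carries no independent weight. C3, the central complement protein, had 4.42 and 5.39 CPM in pretreated cells and 12.9 CPM in the naive library. C4b had 2.11 and 3.49 CPM against 6.03 CPM. Cp, the copper carrier ceruloplasmin, had 32.0 and 34.0 CPM against 80.0 CPM. The log2 changes were -1.42 for C3, -1.15 for C4b and -1.28 ± 0.080 for Cp (edgeR adjusted p = 1.8e-12), and C1ra gave -0.71. Cfb (adjusted p = 0.72) and Serping1 (adjusted p = 0.75) were not called and Saa3 was too low to test. Lbp gave -1.34 from 33 counts in the naive library, and Lcn2, with 3 counts in the pretreated and 11 in the naive libraries, was 9.44-fold lower (95% counting interval 2.49 to 52.7). Both calls were lost without pretreated replicate 1 (adjusted p = 0.31 and 0.11), and that of Lcn2 also without replicate 2 (adjusted p = 0.076). In WT, Cp had 20.4 and 22.9 CPM in pretreated and a mean of 22.6 ± 0.892 CPM (SD, n = 2) in naive cells at 2 h, and the difference of changes was -1.22 ± 0.12 (adjusted p = 8.7e-09).

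**Figure D5:**
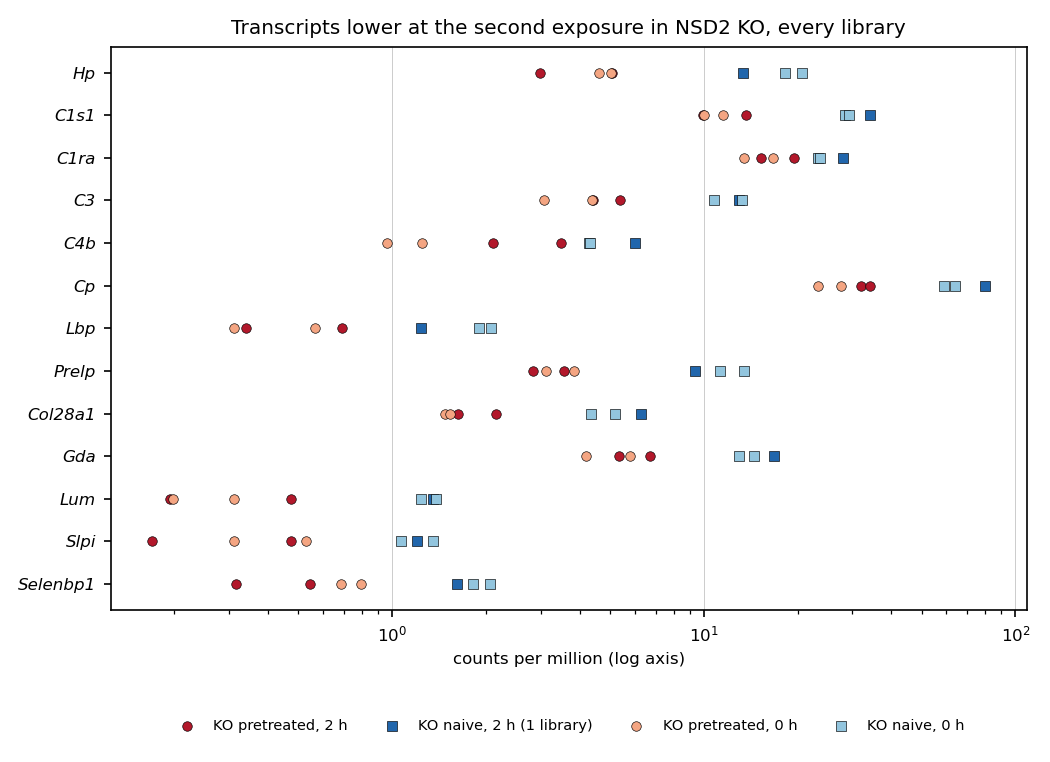
CPM on a log axis of 13 transcripts called lower at the second exposure, in every KO library, as dots for pretreated and squares for naive cells, dark at 2 h (1 naive library) and pale at 0 h. For Hp, C1s1 and Cp the pretreated dots of both times lie left of the naive squares of both times.

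Among the 77 genes called and at least 2-fold lower at 2 h, 48 (62.3%) were also called lower at 0 h and 0 were called higher. Of the 54 called and at least 2-fold higher, 23 were also called higher at 0 h and 1 lower. Fewer of the 77 were shared with WT at 2 h, where 16 (20.8%) were called lower, 1 higher and 60 not. That stands beside 11.8% called lower among all genes in WT. Of the 54, WT at 2 h had 25 called higher and 1 lower, beside 13.2% called higher among all genes. In the plot of falling transcripts, Hp, C1s1 and Cp show the same separation of pretreated from naive cells at 0 h and at 2 h. Its 13 transcripts were chosen, and they leave out Krt8, Kit, Mfap5 and Tek of the 12 largest falls. At 0 h, Krt8, Kit and Mfap5 were not called (edgeR adjusted p = 0.45, 0.11 and 0.093). Tek was called lower at 0 h (adjusted p = 0.045).

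The labelled cell type was checked against markers. All 12 fibroblast markers were tested, with summed levels of 10380 and 10570 CPM in pretreated KO cells and 9001 CPM in the naive library. Of these markers, 4 were called higher and 4 lower, beside 11.2% and 7.61% of all genes. Col1a2 and Vim were abundant, while Pdgfra fell by 0.50 and Dcn by 1.17 on the log2 scale. Without pretreated replicate 1 the change of Dcn was -0.70 and no longer called (edgeR adjusted p = 0.051). Ptprc, which marks blood cells, Myod1 of muscle, Adipoq of fat and Acan of cartilage had 0 counts in all 3 libraries, and Pecam1 of endothelium had 1, 1 and 0. The summed markers of macrophages and blood stood at 6.92 and 7.24 CPM in pretreated cells and 6.26 CPM in the naive library, with 6 of 14 members at 0 in all 3. Endothelial markers summed to 1.02 and 1.06 CPM against 1.50 CPM, epithelial ones to 2.89 and 3.02 CPM against 5.58 CPM and muscle ones to 8.52 and 8.23 CPM against 10.7 CPM. Nerve and glia markers gave 62.3 and 56.5 CPM against 62.5 CPM, fat markers 18.9 and 21.3 CPM against 19.0 CPM, and cartilage and bone markers 380.1 and 399.5 CPM against 210.4 CPM, most of it Col2a1. The part of other cell types in the falls of Hp, Krt8 and the complement genes was not tested.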

How the data were processed

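RNA of KO and WT fibroblasts was sequenced in pairs of reads. Each library has 1 deposited table of gene symbols with raw read counts. Per the submitters' processing notes, the authors used bcl2fastq 2.15, STAR 2.5.2b, HTSeq and mm9. The sources used here do not give the annotation or the strand setting, so overlapping and antisense genes are uncertain, as are near-identical copies such as Tgtp1 and Tgtp2. The 5 summary lines per table were left out (reads in no gene: 39.4%, 40.4% and 40.1% of unique reads in the 3 libraries).

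Counts were scaled by TMM in edgeR 4.0.16 (R 4.3.3), and 13802 genes passed filterByExpr (minimum count 10). For the quasi-likelihood test, 8 groups were fitted together (15 libraries, 7 residual degrees of freedom), and p-values were adjusted by Benjamini-Hochberg over all genes. Errors of log2 changes are standard errors. Replicates differed by more than sampling noise, with chi-square over degrees of freedom of 4.22 for pretreated KO at 2 h. Steps were tested on simulated data. Intervals cover counting error only.

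The members, the 15 gene lists and 8 marker lists were chosen with earlier results of these data known. Named genes were Whsc1, 24 followed interferon genes, the 12 largest rises and falls with separate libraries and at least 1 CPM, up to 4 members per list with the smallest p, and the 6 largest genotype differences each way. Some genes that these rules name are not reported here. Other list members were named as examples after their values were seen, as were the complement and acute-phase genes. Alternatives were DESeq2 1.42.0, RLE size factors, no filter on low counts, 1 genotype alone, a replicate block, counts without Rn45s and Lars2, and leaving out each library of the groups compared, except the single naive KO library at 2 h. A fit without the 3 libraries low in Rn45s and Lars2 was added after seeing the data. Figures were drawn with matplotlib 3.10.9.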

Additional observations from a re-analysis of the deposited data

Results flagged for a closer look

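The change between the second and the first exposure differed between KO and WT cells for 1248 of the genes tested, by a test of the difference itself in edgeR. Values here are log2 differences, KO minus WT, so a negative one means a smaller or more negative change in KO.

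Most of the followed interferon genes gave a called negative difference. Effectors and GTPases were Ifit1 with -2.41, Ifit2 with -1.37, Ifit3 with -1.79, Isg15 with -1.23, Usp18 with -2.33, Mx1 with -1.83, Mx2 with -2.13, Rsad2 with -1.64, Cmpk2 with -0.91, Oasl2 with -1.78, Oas3 with -1.62, Bst2 with -1.37, Gbp2 with -1.43 and Iigp1 with -1.78. Signalling genes were Irf7 with -1.47, Irf9 with -0.70, Irf1 with -0.72 and Stat2 with -1.14. The sensor Ifih1 gave -1.14 and the chemokine Cxcl10 gave -2.14. Cmpk2 lost the call without WT naive replicate 2 (edgeR adjusted p = 0.17), and so did Oas3 (adjusted p = 0.12), which also lost it without WT pretreated replicate 1 and in DESeq2.

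The other genes with large differences were mostly at low levels in 1 genotype. Gm14446 gave -3.17 and Oasl1 gave -2.57, the second lost without WT naive replicate 2 (adjusted p = 0.072). Sorl1 gave -3.79, with 17 counts in pretreated and 2 in naive WT cells, a ratio of 8.33 (95% counting interval 1.98 to 74.3). Ccrl2 gave -5.60, with 15.1 and 16.7 CPM in pretreated and 8.99 CPM in naive KO cells, and 18 counts in pretreated against 0 in naive WT cells, at least 5.88-fold higher over the group. Immp2l gave -4.13 and rests on 1 count in pretreated and 8 in naive KO cells, and Tmtc1 gave -2.46. Positive differences were 2.13 for Ctnnd2, 6.40 for AI839979, 3.17 for Tnfsf18, 2.06 for Plxna4, 2.00 for Cacna1g and 1.92 for Aldh1a1. AI839979 had 11 counts in pretreated and 0 in naive KO cells, at least 1.43-fold higher over the group, so its fitted value depends on the prior count and is no bound. Tnfsf18 had 39 counts in pretreated and 2 in naive KO cells, a ratio of 7.58 (1.96 to 64.8), and Plxna4 had 25 and 3, a ratio of 3.24 (0.988 to 16.8). Ctnnd2, Ccrl2, Immp2l, Tmtc1, AI839979, Tnfsf18, Plxna4, Cacna1g and Aldh1a1 each lost the call without at least 1 of the libraries compared.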

How the results depend on the processing

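The naive KO group at 2 h has 1 library, so it could not be left out and its deviation enters every value of the KO comparison. With each library of the groups compared left out in turn, except the naive KO library at 2 h, calls ranged over 1674 to 2148 for KO at 2 h (lowest without pretreated replicate 1), 2278 to 2954 for WT at 2 h (lowest without naive replicate 1), 778 to 1197 for the genotype difference and 1897 to 2167 for KO at 0 h. Fewer libraries enter these fits. For KO at 2 h, RLE size factors gave 2601 calls, no filter 2677, DESeq2 1768, a fit on KO alone 2746, counts without Rn45s and Lars2 2600 and the fit without 3 libraries 2747, against 2598. Of 113 named genes called at 2 h in KO, 90 kept the call in all of these alternatives that gave an adjusted p, 23 lost it in at least 1, and 0 changed direction. The antiviral members called higher numbered 38 (DESeq2) to 53 (no filter), against 48.

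Same-numbered replicates did not deviate together throughout (correlations of replicate differences -0.101 to 0.401), so the numbers were not taken to pair libraries. A replicate block gave 2951, 3711, 1568 and 3359 calls for the 4 comparisons, against 2598, 3447, 1248 and 2995, and 3 named genes lost the call under it (Ifit3, Acta1 and Cacna1g). Low counts limit what can be seen of genes under about 1 CPM.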
